A study of Mus musculus with 2 samples.

Results

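The proteasome genes were taken by symbol: every gene named Psma to Psmg followed by a number that has at least 1 protein-coding transcript. The rule gave 50 genes of 55536 annotated genes, of which 22015 were protein-coding and nuclear. All 50 were matched to the annotation, and 4 pseudogenes that carry similar symbols had at most 1.0 count in a library and were left out. The data came from heart tissue of B6CASTF1/J males aged 14 days; this strain is the F1 cross of C57BL/6J with CAST/EiJ. Total RNA, 300 ng per library, was depleted of ribosomal RNA and sequenced by strand with spike-in RNAs in 2 libraries. The labels number them as biological replicates 1 and 2, here called replicate 1 and replicate 2. The labels mention 3 males and give the 2 libraries the same donor label, and whether animals were pooled is not stated. The animals carried no engineered allele or treatment according to the labels, and the libraries form 1 group, so levels are described and no condition is compared.

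The proteasome is the barrel-shaped protease that degrades proteins tagged with ubiquitin. Its core is a stack of rings: outer rings of alpha subunits gate the entrance, and inner rings of beta subunits hold the catalytic sites, which cut after acidic (beta 1), basic (beta 2) or hydrophobic (beta 5) residues. A cap binds the ubiquitin tag, and its ATPases unfold the substrate and push it into the core. Interferon and immune cells replace the catalytic subunits by immune versions that change the peptides offered to T cells, and cortical epithelial cells of the thymus use a further beta 5 subunit. In heart muscle the proteasome turns over contractile and mitochondrial proteins.

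Depth was 39334380 and 46391250 expected counts, which are reads assigned to genes by an estimate that can split a read between genes. Levels are TPM, an abundance unit scaled to the length of the gene and the size of the library, given as mean ± SD over the 2 libraries (n = 2) unless both values are printed. Detection required 1 TPM in each of the libraries. In whole tissue, fewer cells of a type and less RNA per cell cannot be told apart. Markers of heart muscle were at the highest median of the cell type lists examined after the erythroid list, at 3486 and 3260 TPM.

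Of the 50 genes, 45 (90%) were detected, against 11408 of 22015 nuclear protein-coding genes (51.8%). Their median level was 40.2 TPM in replicate 1 and 41.0 in replicate 2, against 1.42 and 1.53 TPM over all nuclear protein-coding genes and 9.72 and 9.94 over the detected ones. The genes together held 0.218% of all counts in each library. Of nuclear protein-coding TPM they held 0.495% and 0.497%. By the mean of the libraries, the most abundant was Psmb7, the constitutive beta 2 subunit, at 103.0 ± 1.82 TPM (chromosome 2, 38588036 to 38644087, mm10). Psmb4, a beta subunit without catalytic activity, followed at 100.1 ± 4.09 TPM and Psme1, a subunit of an alternative cap, at 99.0 ± 2.21. The top rank was not fixed: in replicate 1 Psmc3, at 107.7 TPM, was above Psmb7, at 101.7. By mean kallisto-style TPM, Psme1 (148.6) and Psmc3 (142.6) stood above Psmb7 (131.5). These levels take in all transcripts of a gene. In replicate 1 protein-coding transcripts took 66.4% of the TPM of Psmc3 and 99.6% of that of Psmb7. Kallisto-style, they took 53.9% for Psme1, 62.7% for Psmc3 and 99.7% for Psmb7 by the mean. In the order of the 45 detected genes, 27 of 44 neighbouring pairs had library values that overlapped, so most neighbours in that order did not differ beyond their spread. The plot of levels by role shows the core and cap subunits as a band with the chaperones, Psmb8 and Psmb9 below it and Psmb10 at its lower end.

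**Figure D1:**
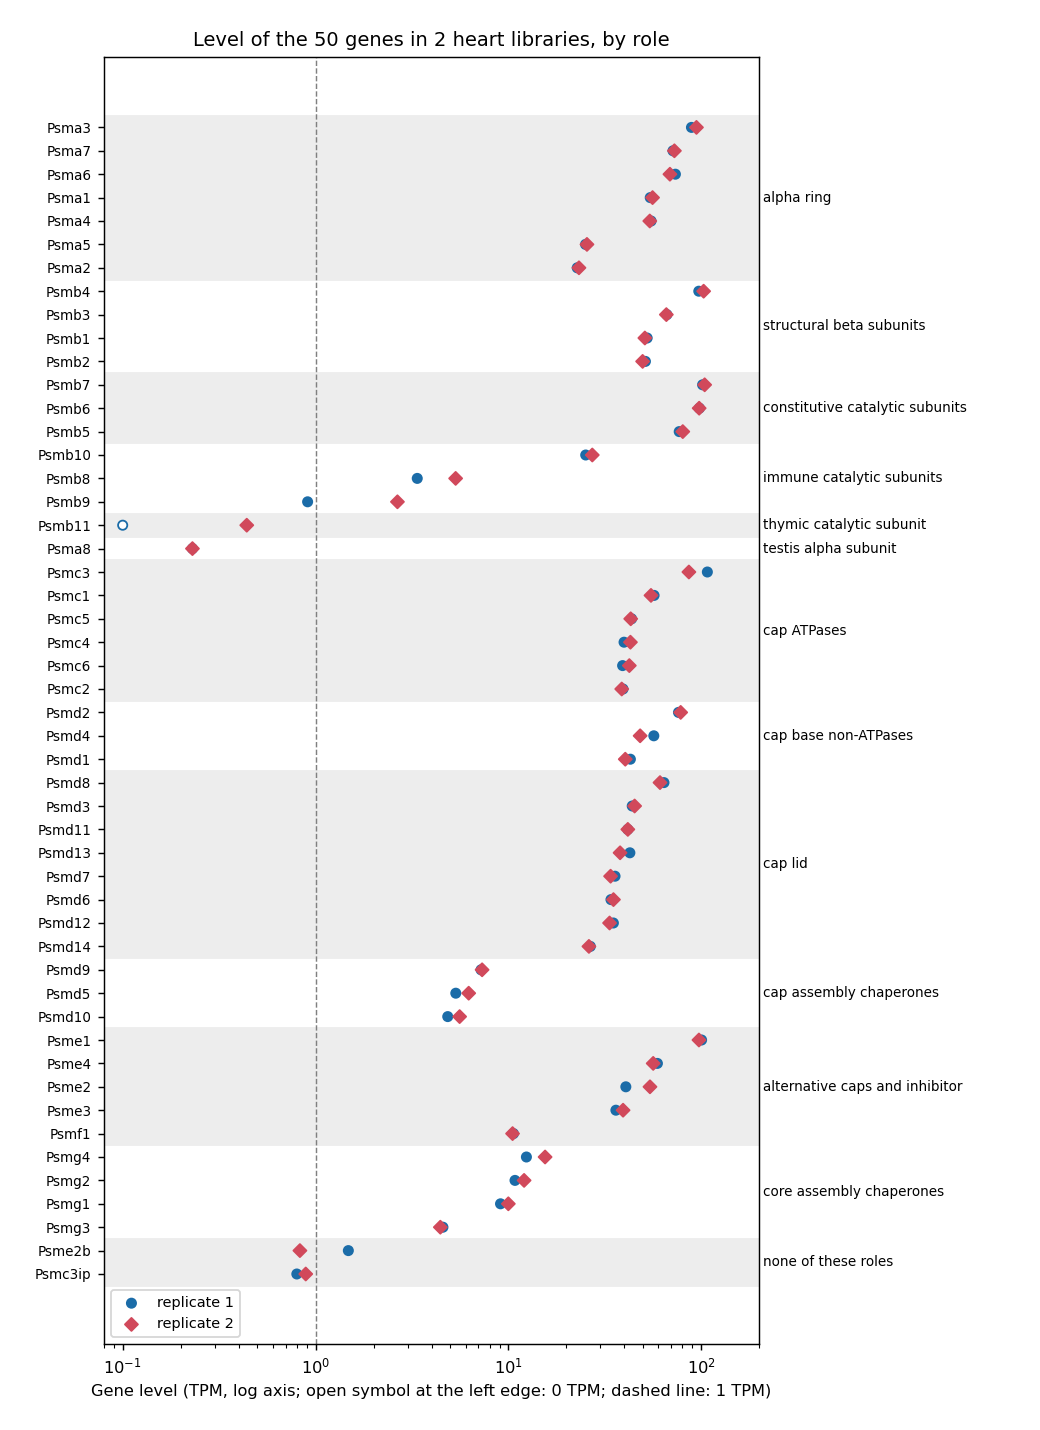
Level of each of the 50 genes in TPM (log axis) in replicate 1 (blue circles) and replicate 2 (red diamonds), grouped by role, with a dashed line at 1 TPM. The 14 constitutive core subunits and the 17 cap subunits under the symbol rule have mean levels between 23.0 and 103.0 TPM. Psmb11 and Psma8 lie below 0.5 TPM in both libraries, and Psmb11 has 0 TPM in replicate 1, drawn as an open circle at the left edge.

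The alpha ring is built from Psma1 to Psma7, and all 7 were detected, with a median of 55.5 ± 0.693 TPM. Psma3 was highest, at 89.1 TPM in replicate 1 and 94.5 in replicate 2. Psma2 was lowest, at 22.8 and 23.2 TPM, and Psma5 was close to it at 25.1 and 25.6. The other alpha subunits stood between these, with Psma7 at 72.0 ± 0.856, Psma6 at 71.2 ± 3.29, Psma1 at 55.2 ± 1.08 and Psma4 at 54.6 ± 0.594 TPM. One copy of each alpha subunit sits in each ring, yet the highest and lowest differed 3.99-fold in RNA level over all transcripts of the gene. Protein-coding transcripts took 53.5% of the TPM of Psma3 RSEM-style and 2.91% kallisto-style, and 100% of that of Psma2 in both. Psma3 also shares much of its sequence with a pseudogene, so its part of the reads is uncertain. Psma8, which replaces Psma7 in the testis, was not detected. It stood at 0.23 TPM in each library from 11 and 4 counts, 313-fold below Psma7. The equal values rest on different transcripts: the protein-coding Psma8-201 was at 0.22 TPM in replicate 1 and at 0 in replicate 2. Of 6 male germ cell markers, 0 were detected.

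The beta subunits without catalytic sites, Psmb1 to Psmb4, had a median of 59.0 ± 0.651 TPM. Psmb4 was at 97.2 and 103.0 TPM. Psmb3, at 66.4 and 66.0, came next. Psmb1, at 52.5 and 51.1, and Psmb2, at 51.4 and 49.7, were close to each other.

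The constitutive catalytic subunits formed the highest group, with a median of 97.8 ± 0.184 TPM. Psmb6, the beta 1 subunit (chromosome 11, 70525367 to 70527858), was at 97.9 and 97.7 TPM. Psmb7, the beta 2 subunit, was at 101.7 and 104.3 TPM. Psmb5, the beta 5 subunit and the main target of the drug bortezomib (chromosome 14, 54614119 to 54618022), was at 77.0 and 80.3 TPM. The libraries were within 5% of each other for each of these genes, and Psmb5 lay below the other two in both libraries. Psmb5 shares much of its sequence with pseudogenes, so its part of the reads is uncertain.

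The immune catalytic subunits were far lower and spread widely, with a median of 4.35 ± 1.39 TPM. Psmb10, the immune beta 2 subunit (chromosome 8, 105935735 to 105938444), was at 25.2 and 27.2 TPM and was the highest of them. Psmb8, the immune beta 5 subunit (chromosome 17, 34197721 to 34201454), was at 3.37 and 5.33 TPM. Psmb9, the immune beta 1 subunit (chromosome 17, 34181987 to 34187764), was at 0.91 and 2.66 TPM and so was below the detection threshold in replicate 1. Their order was the same in both libraries, and their values did not overlap. Psmb8 and Psmb9 lie 9.956 kb apart, within the region of the antigen-presentation genes.

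At each catalytic position the immune subunit's part of the TPM was computed. At beta 2 it was 19.9% and 20.7%. At beta 5 it was 4.20% and 6.19%, and at beta 1 it was 0.921% and 2.65%. On the log2 scale the constitutive subunit was above the immune one by 2.01 and 1.94 at beta 2, by 4.51 and 3.91 at beta 5 and by 6.75 and 5.20 at beta 1, where the libraries differed most and Psmb9 was below the detection threshold in replicate 1. Counting RSEM-style protein-coding transcripts only, the beta 2 part was 10.5% and the beta 5 part 2.85%. The protein-coding part of Psmb8 itself depended on the quantifier, at 51.7% RSEM-style and 86.5% kallisto-style. Psmb11, the thymic beta 5 subunit (chromosome 14, 54621433 to 54629556), had 0 counts in replicate 1 and 67 in replicate 2, and lies 3.41 kb from Psmb5. These counts gave 0 and 0.44 TPM and 0.511% of beta 5 in replicate 2. A count of 0 allows up to 3 counts, or 0.0424 TPM, in replicate 1, for counting error only.

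**Figure D2:**
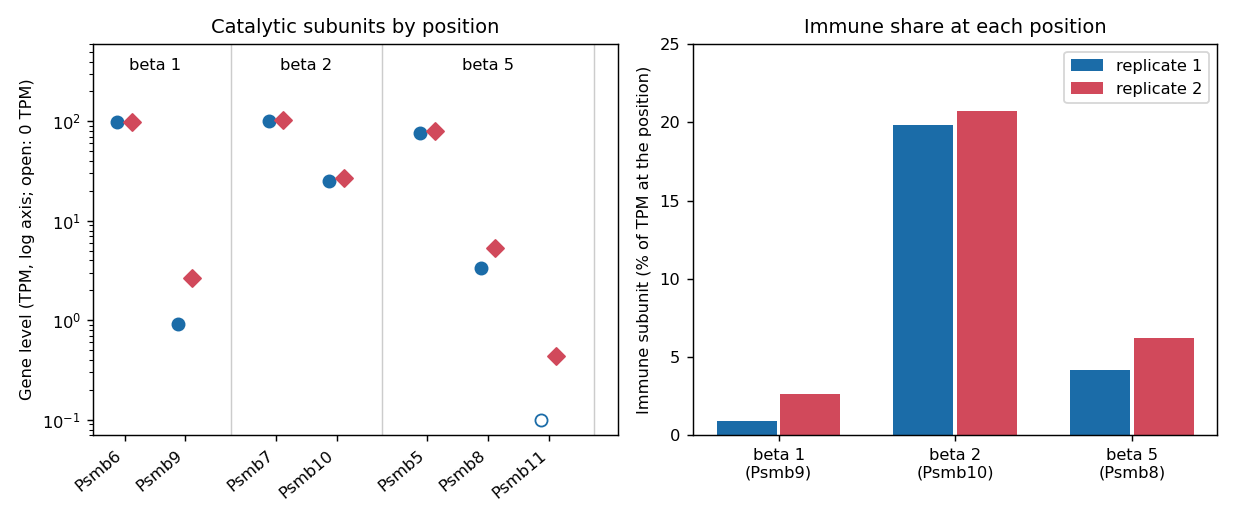
Left, level in TPM (log axis) of the constitutive, immune and thymic subunits at the beta 1, beta 2 and beta 5 positions, and right, the immune subunit's percent of the TPM at its position, in replicate 1 (blue) and replicate 2 (red). The immune bar at beta 2 stands near 20% in both libraries (19.9% and 20.7%), while those at beta 1 and beta 5 are below 7% and higher in replicate 2; the open circle marks 0 TPM for Psmb11.

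Upstream sequence is shown for catalytic subunits of both kinds, since their levels differ most within a position. Windows of 250 bases before the transcription start were taken from RefSeq for GRCm38.p6, the build of mm10, and 42 of the 50 genes had 1 or more (45 windows). Bases inside annotated exons were left out, which left nothing to show for Psmb8, Psmb9 and Psmb11. The sequences are printed 5′ to 3′ on the strand of the gene, and capitals mark matches to the motifs below. The Psmb5 stretch is chr14:54618023-54618245, minus strand, that of Psmb6 is chr11:70525107-70525356, plus strand, and that of Psmb10 is chr8:105938445-105938642, minus strand.
Psmb5: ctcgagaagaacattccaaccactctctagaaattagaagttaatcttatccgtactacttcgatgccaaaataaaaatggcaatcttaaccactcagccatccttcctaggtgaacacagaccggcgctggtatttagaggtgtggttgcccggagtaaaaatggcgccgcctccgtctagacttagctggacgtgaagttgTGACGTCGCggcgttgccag
Psmb6: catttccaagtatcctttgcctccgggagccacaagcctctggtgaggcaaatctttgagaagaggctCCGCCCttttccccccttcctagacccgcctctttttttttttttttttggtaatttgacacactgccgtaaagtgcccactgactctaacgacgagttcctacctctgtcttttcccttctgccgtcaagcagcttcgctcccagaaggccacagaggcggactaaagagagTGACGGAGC
Psmb10: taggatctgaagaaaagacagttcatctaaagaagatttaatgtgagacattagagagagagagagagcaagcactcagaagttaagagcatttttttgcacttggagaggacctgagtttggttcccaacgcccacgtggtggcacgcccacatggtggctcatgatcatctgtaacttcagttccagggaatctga

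The capitals in Psmb5, and those next to the start of Psmb6, match TGACNNNGC, the core of the antioxidant response element bound by factors of the Nrf family, which are known to induce proteasome genes. The capitals further upstream in Psmb6 match the GC box GGGCGG on the other strand. No capitals appear in Psmb10. Each motif was searched on both strands in the same 250 bases of all 32851 windows, and the motifs were chosen after the levels had been seen. TGACNNNGC was in 11.1% of the proteasome windows (Psmb5, Psmb6, Psmc6, Psmd9 and Psmd12) and in 10.2% of all windows. The gamma-activated site TTCNNNGAA was in 4.44% (Psmb8 and Psmg1) against 7.02%. The search kept bases inside annotated exons, and all 250 bases of the Psmb8 window lie in such exons. The interferon-stimulated element GAAANNGAA was in 6.67% against 7.13%, and a spelling of it with 1 more A at its end in 6.67% against 2.98%. The CCAAT box, CCAAT, was in 33.3% against 33.8%, and GGGCGG was in 51.1% against 32.7%. A loose spelling of the NF-kappa-B site was in 22.2% against 17.6%. A strict spelling of the NF-kappa-B site, the strict antioxidant element TGACTCAGC, each a case of its loose spelling, and the cAMP element TGACGTCA, which can overlap TGACNNNGC, were in 0 of the 45 windows, against 0.14%, 0.39% and 1.55% of all. These matches describe letters in the windows and were not tied to any measurement of binding.

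The cap was lower than the core. Its 17 subunits under the symbol rule had a median of 42.5 ± 0.198 TPM, against 68.2 ± 1.05 for the 14 constitutive core subunits. The log2 ratio of the medians was 0.69 in replicate 1 and 0.67 in replicate 2, or 1.60-fold. With expected counts, which are not scaled for gene length, the log2 ratio of the medians was 0.00993. The median cap gene thus gave about as many reads as the median core gene, which does not compare the reads of the whole sets. The ATPases that unfold substrates, Psmc1 to Psmc6, had a median of 42.4 ± 0.962 TPM. Psmc3 stood apart from them at 107.7 and 86.4 TPM, and Psmc2 was lowest at 39.3 and 38.7. Psmc1 was at 56.0 ± 1.46, and Psmc4, Psmc5 and Psmc6 lay between 40.8 and 43.3 TPM by their means. The base subunits without ATPase activity that match the rule were Psmd2, Psmd4 and Psmd1. Psmd2, a scaffold, was at 77.3 ± 1.44 TPM, and Psmd4, a ubiquitin receptor, at 56.8 and 48.2. Psmd1, also a scaffold, was at 41.7 ± 1.80 TPM. The lid genes that match the rule had a median of 37.6 ± 1.52 TPM. They ran from Psmd8 at 62.7 ± 2.09 to Psmd14, the enzyme that removes the ubiquitin chain, at 26.4 ± 0.311. The others of them, Psmd3, Psmd6, Psmd7, Psmd11, Psmd12 and Psmd13, had means between 34.3 and 44.5 TPM. Adrm1 and Sem1, cap genes whose symbols do not match the rule, were not part of these medians. They were at 36.8 ± 1.47 and 40.2 ± 0.785 TPM.

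Factors that attach to or build the core and cap were mostly low. The cap chaperones Psmd5, Psmd9 and Psmd10, which hold the ATPases before they join, were at 5.79 ± 0.629, 7.26 ± 0.0636 and 5.22 ± 0.523 TPM. The core chaperones, Psmg1 to Psmg4, ran from Psmg3 at 4.51 ± 0.0990 to Psmg4 at 14.0 ± 2.19 TPM, with Psmg1 at 9.55 ± 0.629 and Psmg2 at 11.4 ± 0.877 between them. Psmf1, an inhibitor of the core, was at 10.6 ± 0.0778. The alternative caps, which open the core without ubiquitin, were higher. Psme1 and Psme2 form the interferon-inducible cap together and lie 5.911 kb apart on chromosome 14. Psme1 was at 100.5 and 97.4 TPM and Psme2 at 40.7 and 54.3, a 2.11-fold difference between partners. Psme4, a cap of the nucleus, was at 57.9 ± 2.06 and Psme3, which is also nuclear, at 37.7 ± 2.28 TPM.

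The 5 genes that were not detected were Psmb9, Psmb11, Psma8, Psme2b and Psmc3ip. Psme2b, a copy of Psme2, stood at 1.48 and 0.83 TPM. Psmc3ip is a protein of meiotic recombination that shares only the symbol pattern, and it was at 0.80 and 0.89. Psme2b and Psmc3ip match the rule, but neither is an established subunit.

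The next comparison was between the 2 libraries. Counts were compared with a 2-sided exact binomial test over all 16611 genes with enough counts, at a Benjamini-Hochberg adjusted p of 0.05. This compares these libraries, not conditions, and its errors cover counting only. Most of the proteasome genes were close: where both libraries held 100 counts or more, the median absolute log2 ratio was 0.059 over 45 proteasome genes and 0.099 over 11416 genes. A ratio within 0.1 log2 units was seen for 75.6% of the former and 50.6% of the latter. The 2 sets were not matched for counts, and genes with more counts carry less counting error. Detected proteasome genes had medians of 42.7 and 43.0 TPM in the libraries, against 9.72 and 9.94 over detected nuclear protein-coding genes. The part of level in these differences was not tested. Of 49 proteasome genes tested, 2 (4.08%) also differed by at least 2-fold, Psmb9 and Psmb11, against 3.27% of all genes tested, so the share was near the background. Both were higher in replicate 2, where the background was 2.51%, and 0 were lower, where it was 0.765%. With any ratio, 4 were higher (Psmb8, Psmb9, Psmb11 and Psme2) against a background of 10.9%, and 6 were lower (Psma6, Psmc3, Psmd1, Psmd4, Psmd13 and Psme4) against 11.1%.

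Psmb9 had 32 counts in replicate 1 and 80 in replicate 2, a log2 ratio of 1.04 (95% interval 0.43 to 1.68; adjusted p = 0.00312 by the exact binomial test). Its TPM, which also takes in the lengths of the transcripts used, differed by more than its counts. Psmb8 had 101 and 204 counts, a log2 ratio of 0.73 (0.38 to 1.09; adjusted p = 0.00026, exact binomial test). Psmb10 had 617 and 778 counts, and its log2 ratio of 0.05 did not pass the test. Psmb11 was at least 18.4-fold higher in replicate 2 by its RSEM-style counts, taking 3 counts for replicate 1 (adjusted p = 1.62e-16, exact binomial test), and the exact 95% interval of its ratio starts lower, at 14.6-fold. The kallisto-style tables list it above 0 in replicate 1, at 0.0719 and 0.536 TPM, so the bound does not hold for them. Psme2 had 734 and 1040 counts, a log2 ratio of 0.22. Summed with its copy Psme2b, which went from 33 to 22 counts, the ratio was 0.19 (adjusted p = 0.0292, exact binomial test). The 6 genes that were lower differed little, from −0.20 for Psmd13 and −0.17 for Psmc3 and Psmd4 to −0.09 for Psme4 on the log2 scale. With an assumed biological coefficient of variation of 0.1, edgeR's exact test gave an adjusted p of 0.139 for Psmb9 and 0.181 for Psmb8, and Psmb11 was then the only proteasome gene called at 2-fold.

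**Figure D3:**
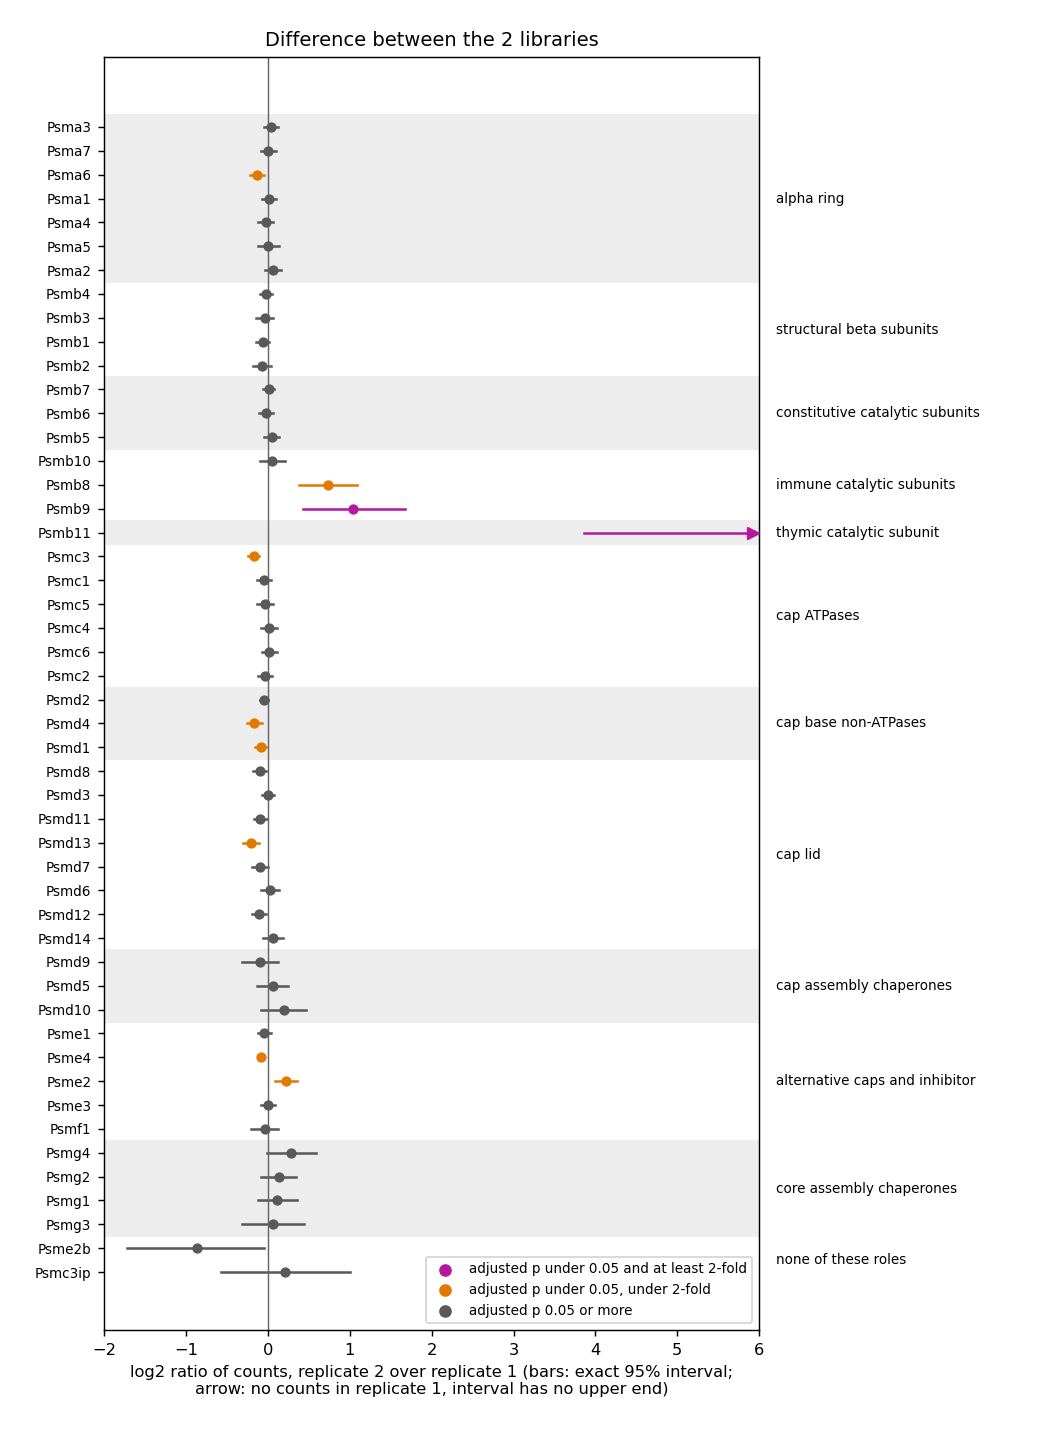
Log2 ratio of counts, replicate 2 over replicate 1, with exact 95% intervals, for the 49 tested genes by role; purple marks an adjusted p under 0.05 with at least a 2-fold ratio, orange an adjusted p under 0.05 with a smaller ratio, and grey the rest. Psmb9 (1.04), Psmb8 (0.73) and Psmb11, whose interval has no upper end, lie to the right of a column of genes near 0. Psme2b (−0.87, interval −1.71 to −0.04), drawn in grey, lies to the left of it.

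Markers of T cells, thymocytes and thymic epithelium were also higher in replicate 2, as were Psmb8, Psmb9 and Psmb11 but not Psmb10. The summed TPM of 12 T cell markers was 6.14 in replicate 1 and 91.4 in replicate 2, and 11 of the 12 were at least 2-fold higher there. Over all genes tested, 2.51% were higher by 2-fold in replicate 2. For 9 thymocyte markers the sum was 17.1 and 62.8, with 6 of 8 tested higher by 2-fold and 2 at 0 counts in replicate 1. For 7 thymic epithelium markers it was 2.34 and 13.3, with 4 of 5 tested higher by 2-fold and 3 at 0 counts in replicate 1. Among these, Prss16, a protease of the thymic cortex, had 1 count and 360. Krt5, a keratin, had 0 and 66. Foxn1, the transcription factor that defines thymic epithelium, had 0 and 11. The 5 pan-leukocyte markers summed to 13.3 and 45.7 TPM, all of them at least 2-fold higher in replicate 2. Macrophage markers, at 66.6 and 78.4, and B cell markers, at 1.70 and 2.12, held 0 genes with a 2-fold difference. The part of these cells in the ratios of Psmb8, Psmb9 and Psmb11 was not tested.

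Genes of antigen processing and interferon response were read as a list of 21, of which 17 were detected. With any ratio, 6 of 20 tested were higher in replicate 2 and 0 lower, against 10.9% and 11.1% of all genes tested. Nlrc5, the activator of class I genes, was the only one at 2-fold (17 and 54 counts, log2 1.39), where 2.51% of all genes were higher. The peptide carrier has 2 subunits: Tap2 was higher by 0.33, and Tap1, at 0.08, did not pass the test. The class I heavy chains H2-K1 and H2-D1 were higher by 0.37 and 0.24, their partner B2m by 0.15 and the interferon gamma receptor chain Ifngr2 by 0.10. Ifng, interferon gamma itself, had 0 counts in both libraries. The list's median log2 ratio was 0.09.

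Other genes of the ubiquitin and proteasome pathway were read as a list of 31, of which 29 were found and all 29 detected, with medians of 28.7 and 29.0 TPM. Paaf1 and AI314180 were not analysed here. Pomp, the chaperone that closes the assembly of the core, was at 50.1 ± 4.24 TPM. Nfe2l2, a transcription factor that binds the antioxidant element, was the only one higher, by 0.15 on the log2 scale, at 28.7 and 32.3 TPM. Nploc4, a cofactor that draws out ubiquitylated proteins, Uba1, the ubiquitin-activating enzyme, and Ubb, a polyubiquitin gene, were lower, at −0.21, −0.06 and −0.13. Over all genes tested, 10.9% were higher and 11.1% lower at any ratio. The list held 0 genes with a 2-fold difference, against 3.27% of all genes tested, and its median log2 ratio was −0.04.

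The gene levels rest on several transcripts each. The 50 genes have 278 annotated transcripts, of which 111 are protein-coding, the rest including retained introns, processed transcripts and targets of nonsense-mediated decay. Protein-coding transcripts took a median of 96.1% of the TPM of the 45 detected genes, against 92.0% for all detected protein-coding genes, and 29 (64.4%) of them reached 90%, against 54.2%. Over the TPM of all 50 genes together, retained introns took 6.40% and 7.81% in the libraries and decay targets 3.83% and 4.03%. In 8 of the 45 detected genes the protein-coding part was below 70% by the mean: Psmb10, Psmb8, Psma3, Psmd13, Psmc6, Psme2, Psme1 and Psmb4. Psmb10 was lowest of these by the mean, at 47.7% and 44.0%, while Psmb8, at 41.8% and 61.5%, was below it in replicate 1. Of the undetected genes, Psmc3ip, at 41.25%, Psmb9, at 63.0%, and Psma8 were also below 70% by the mean. Every immune catalytic subunit was thus below 70% by the mean. In Psmd13 a transcript annotated as a decay target, Psmd13-211, was at 17.9 and 14.0 TPM and the protein-coding Psmd13-208 at 14.7 in each library, so the decay target led in replicate 1 and by the mean, and not in replicate 2.

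The deposited tables from the other quantifier, in the style of kallisto, gave another division. The protein-coding part was lower there for 27 of the 45 genes and higher for 12, and its median was 91.0%. It fell by more than 20 percentage points in 7 genes, Psma1, Psma3, Psmc4, Psmc6, Psmd11, Psmd2 and Psmg1, and only Psmb8 gained as much. The largest change was in Psma3, where it was 53.5% in the first set of tables and 2.91% in the second. In the first, the leading transcript of Psma3 was the protein-coding Psma3-204, at 29.6 and 23.7 TPM. In the second, Psma3-201, annotated as a decay target, led at 64.6 and 68.0 TPM, and Psma3-204 was near 0. The leading transcript was the same in both sets for 42 of 50 genes and was protein-coding in 48 and 45. For levels per gene, the second set stood above the first in 41 of 45 genes, and in 10293 of all 11408 detected protein-coding genes. The median ratio was 1.24 over the 45 genes, against 1.20 over all detected protein-coding genes. Among the 45 it ran from 0.745 for Psma2 to 2.00 for Psmc6.

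**Figure D4:**
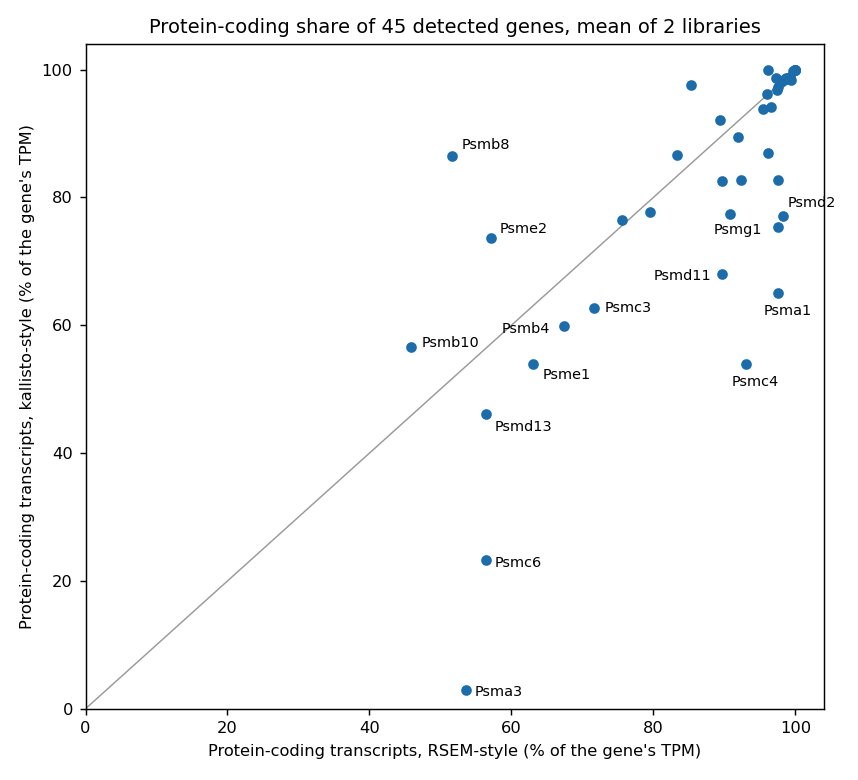
Percent of a gene's TPM in protein-coding transcripts for the 45 detected genes, by RSEM-style tables (horizontal axis) and kallisto-style tables (vertical axis), each the mean of 2 libraries; the line marks equal values. Most genes lie near the upper right corner, while Psma3 (53.5% and 2.91%) and Psmc6 (56.4% and 23.3%) lie far below the line and Psmb8 (51.7% and 86.5%) above it.

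Some levels depend on how reads were divided between near-identical genes. The leading protein-coding transcript of each gene was cut into words of 31 bases, and the words were looked up in the transcripts of all other genes. Of the 50 genes, 27 shared no word. In 6 genes most of the words were shared: Psma3 (79.0%), Psme2b (78.4%), Psmb5 (74.0%), Psmb3 (66.8%), Psme2 (66.2%) and Psma5 (64.0%). Psma3 shared them with the processed pseudogene Gm13835, which stood at 11.5 and 10.5 TPM. Psmb5 shared 61.7% of its words with the processed pseudogene Gm3375, at 8.42 and 8.50 TPM. Psme2 and Psme2b shared them with each other. The division of reads within these sets is uncertain, and the levels of these 6 genes carry that limit.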

How the data were processed

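Both libraries are heart samples of 1 group. The authors deposited gene and transcript tables with the column names of RSEM, which hold expected counts, TPM and the percent of a gene's TPM in each transcript, and transcript tables with the column names of kallisto. Per the authors' readme the build was mm10 with GENCODE M21; aligner, software and versions: not given in the sources used here. The proteasome genes and all lists were chosen with earlier results of these data known, and any gene of the rule or of the pathway and antigen lists could be named.

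Main values were RSEM-style gene TPM. Expected counts were rounded and libraries compared with a 2-sided exact binomial test (scipy 1.17.1) on sizes scaled by TMM (edgeR 4.0.16), over genes at 10 counts or more in both, or 20 summed, with Benjamini-Hochberg adjustment over all of them. A call needed an adjusted p of 0.05 and a log2 ratio of 1 either way. edgeR's quasi-likelihood test could not be fitted, since 1 library per arm leaves no residual degrees of freedom, so its exact test was run with an assumed coefficient of variation; DESeq2 1.42.0 gave only size factors. The binomial test was tested on simulated data that held counting error only, so that run does not cover spread between samples. Intervals are exact 95% intervals (Clopper-Pearson). Replicates, which the labels call biological, measure the spread between these samples, and its technical part could not be told apart.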

Additional observations from a re-analysis of the deposited data

How the results depend on the processing

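The median level of the proteasome genes was 40.6 TPM and became 50.1 with kallisto-style TPM, 41.3 with posterior mean TPM, 36.4 with protein-coding transcripts only and 96.2 with TPM rescaled over nuclear protein-coding genes. The immune part at beta 2 was 20.3% and became 19.1% with kallisto-style TPM, 10.5% with RSEM-style protein-coding transcripts and 15.9% with expected counts. That at beta 5 was 5.19% and became 2.85% with RSEM-style protein-coding transcripts. The core-to-cap log2 ratio of 0.68 became 0.73 with kallisto-style TPM, 0.66 with posterior means, 0.62 with protein-coding transcripts, 0.00993 with expected counts and 0.50 with means in place of medians. The median protein-coding share of 96.1% became 91.0% with kallisto-style TPM.

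Of the 2 genes called at 2-fold, 1 remained (Psmb11) with kallisto-style counts and with edgeR's exact test at a coefficient of variation of 0.1 or 0.2, and 10 were called at any ratio. Over all genes, 544 calls became 230 at 0.2 and 3650 at any ratio. The 9 genes with a finite ratio that passed at any ratio passed with DESeq2 or spike-in size factors, without the count filter and with kallisto-style counts; all of them lost the call with edgeR's exact test, with no change of direction. The cause of these shifts was not tested. The sum of Psme2 and Psme2b was chosen after seeing the data. Leaving out a replicate moved the median between 40.2 and 41.0 TPM. No paired analysis was possible because the 2 libraries form 1 group. With 2 libraries the spread of a level is itself poorly known, and ratios of genes with few counts, such as Psmb9, rest on wide intervals.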
